A study of Mus musculus with 9 samples.

Results

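The 9 genes described here carry out heme synthesis, heme breakdown and cellular iron uptake: Alas1, Alad, Uros, Urod, Cpox, Ppox, Fech, Hmox1 and Tfrc. They were chosen by name, as the rows of the deposited table whose symbol was on this list. These genes and the gene lists used below were chosen with earlier results of these data known. Their counts beside those of all genes are therefore a description. All 9 were found, each on 1 line, among 22527 symbols. The table holds ribosome-bound mRNA from 3 fat depots of C57BL/6 mice of 8 weeks, which the labels list as wild type with no other treatment. The depots were brown fat (BAT), white fat of the groin under the skin (inguinal, iWAT) and white fat around the epididymis (eWAT). Each depot had 3 libraries, 9 in all. Ribosomes were pulled down with an antibody against GFP, and the labels do not say which cells carried a GFP tag. They also do not say whether the 3 libraries of a depot came from separate animals, so p-values measure only the spread between these samples. In the RNA pulled down from a depot, fewer cells of a type and less RNA per cell cannot be told apart.

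Heme is an iron-containing ring that serves as the electron carrier in cytochromes. Its synthesis starts in mitochondria, where Alas1 joins glycine and succinyl-CoA, moves to the cytosol for steps that include those of Alad, Uros and Urod, and returns to mitochondria for those of Cpox, Ppox and Fech, the last of which inserts iron. Hmox1 opens the ring again and releases the iron, and Tfrc, the transferrin receptor, brings iron into the cell. Brown fat is rich in mitochondria and their cytochromes, which give it its colour.

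All values are FPKM, read counts divided by transcript length and by the size of the library, so levels of different genes can be set side by side per length. The table gives no read totals. Depth estimated from single-read steps among low values was 11.1 to 21.2 M reads in BAT, 2.92 to 4.66 M in iWAT, 16.2 M in eWAT 1 and 4.46 and 4.61 M in eWAT 2 and 3. Depth was thus greater in BAT than in iWAT without overlap, and its part in the results was not tested. The library BAT 3 carries brown fat in its title and source and inguinal fat in another field. Its Ucp1 level, that of the uncoupling protein of brown fat, was 3054 FPKM, with 2626 and 2434 in BAT 1 and 2 and at most 3.38 in the white libraries. Library iWAT 1 stood closer to the eWAT libraries: its log2 values correlated across genes at 0.968 to 0.976 with the eWAT libraries and at 0.944 and 0.960 with iWAT 2 and 3. Calls that change when it is left out are given with the gene concerned.

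BAT had higher levels than iWAT for 5 of the 9 genes and higher levels than eWAT for 3 of these 5. All 5 are enzymes that act after Alad: Uros, Urod, Cpox, Ppox and Fech. The first enzymes, Alas1 and Alad, and the genes Hmox1 and Tfrc passed the test in no comparison. Differences are on the scale of log2(FPKM + 1), which understates changes of low genes, and were tested with limma over 10374 genes with Benjamini-Hochberg adjustment at an adjusted p of 0.05. Against these counts stood the background of all genes tested, of which 34.5% were higher and 22.9% lower in BAT than in iWAT, 57.5% in either direction. Against eWAT, 20.2% of all genes were higher and 13.5% lower in BAT, 33.7% in either direction. All 3 BAT libraries lay above all 3 iWAT libraries for 5 genes and below them for 0, as they did for 38.5% and 27.2% of all genes. They lay above all 3 eWAT libraries for 5 genes and below them for 1, as they did for 32.0% and 22.7% of all genes. The median log2 difference of the 9 genes was 1.04 against iWAT and 0.65 against eWAT, where that of all genes was 0.23 and -0.02. Cpox passed the filter on low values only through BAT, which fixed its direction, and it is among the genes of each count of higher genes above. Without Cpox, 4 of 8 genes were called higher in BAT than in iWAT and 2 of 8 higher than in eWAT. The medians were then 0.73 and 0.13. The comparisons of BAT with iWAT and with eWAT share the 3 BAT libraries.

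**Figure D1:**
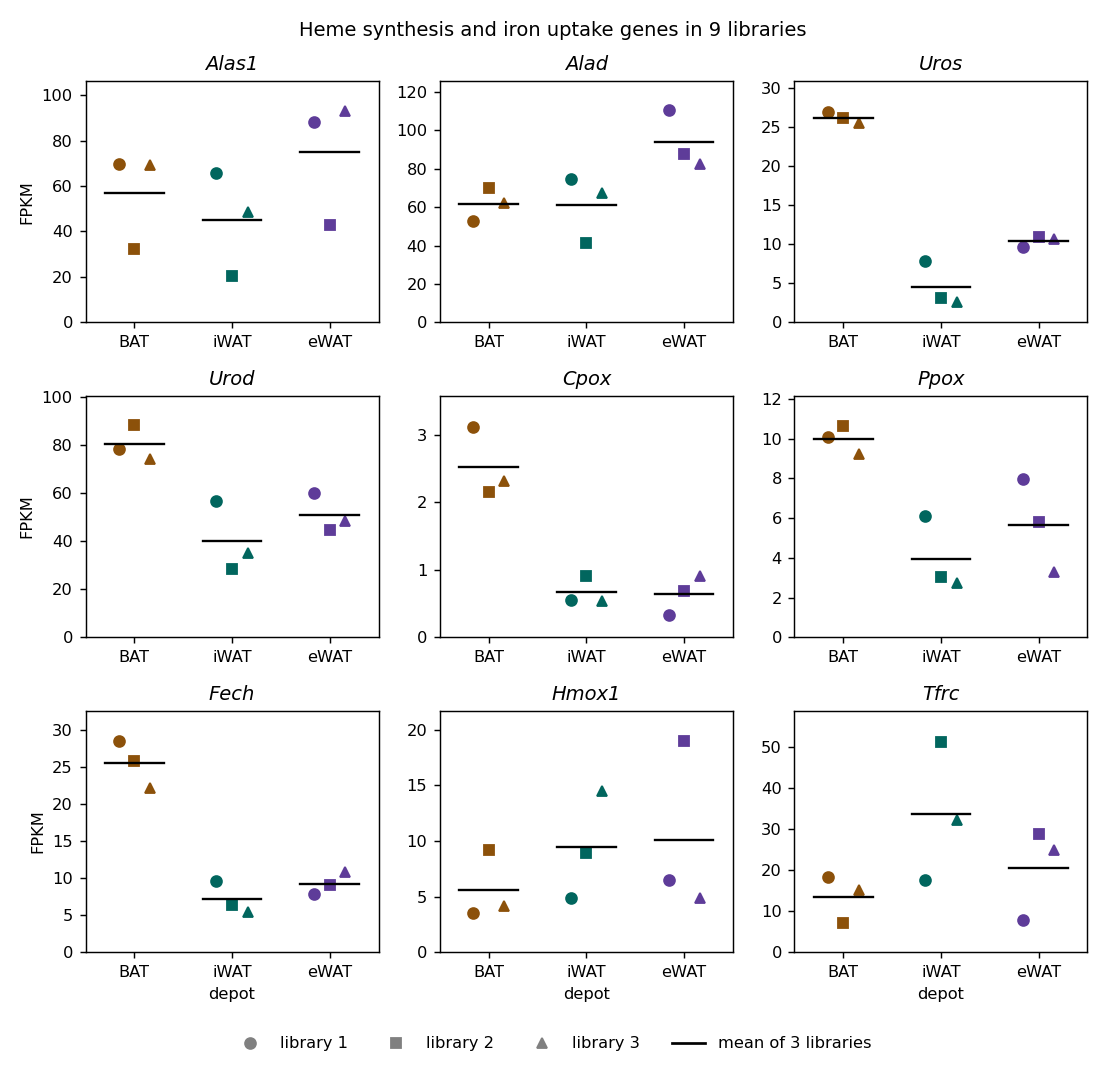
FPKM (vertical axis from 0, its own range in each panel) of each of the 9 genes in each library, with 1 point for each of the 3 libraries of BAT, iWAT and eWAT and a bar at the mean. For Uros and Fech the 3 BAT points lie between 22.1 and 28.4 FPKM, above all 6 white points, while the points of the 3 depots intermingle for Alas1 and Hmox1.

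Alas1, on chromosome 9 (106135786-106150457, build mm9), encodes the rate-limiting enzyme of the pathway outside red cells. Its level was 69.8, 32.3 and 69.2 FPKM in BAT 1 to 3, 65.7, 20.3 and 48.6 FPKM in iWAT 1 to 3, and 88.3, 43.0 and 92.9 FPKM in eWAT 1 to 3. The 3 depots overlapped, and library 2 was the lowest of its depot each time. The log2 difference of Alas1, BAT minus iWAT, was 0.41 (95% interval -0.64 to 1.46, limma adjusted p = 0.471), and this difference was -0.068 without iWAT 2. That of BAT minus eWAT was -0.39 (interval -1.44 to 0.67, adjusted p = 0.547). Both intervals reach past a log2 difference of 1 in size. Alas2, the form of the enzyme that red cell precursors use, was at most 1.08 FPKM and was listed at 0 in 2 libraries, so it was not tested.

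Alad, on chromosome 4 (62170203-62180952), condenses the product of Alas1 into the first ring. Its level was 52.8, 69.8 and 62.0 FPKM in BAT, 74.8, 41.5 and 67.1 FPKM in iWAT, and 111, 87.8 and 82.7 FPKM in eWAT. All 3 eWAT libraries were above all 6 others. The difference of BAT from iWAT was 0.04 (interval -0.54 to 0.63, limma adjusted p = 0.896), and its sign turned to -0.19 with median-ratio scaling. Against eWAT, BAT differed by -0.60 (interval -1.18 to -0.01, adjusted p = 0.104), which did not pass the test. It passed when the 2 depots were fitted alone (adjusted p = 0.0238), with quantile normalization (-0.82, adjusted p = 0.0298) and without iWAT 2 (adjusted p = 0.0383).

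Promoter sites of Alas1, Alad and the later enzymes Uros and Urod are shown for 2 of 7 motifs searched, those of an NRF1 type and the E-box. RefSeq promoter windows (250 bases before the start, build GRCm38.p6) were found for 7 of the 9 genes, and not for Hmox1 and Fech. The letters GCGCA, any base and GCGC, which the factor NRF1 of mitochondrial gene programmes is known to bind, were searched on both strands. They stood in 1 window of Alas1, at 2 places, and in 1 window of Uros, and in 3.74% of all 32851 windows. The letters CACGTG, an E-box, stood in windows of Alad, Urod and Uros and in 6.02% of all windows. All sites printed are on the minus strand, with the motif in capitals.
Alas1, chr9:106247935-106247964: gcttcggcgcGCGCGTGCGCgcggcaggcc
Alas1, chr9:106247906-106247935: cgcacccaagGCGCATGCGCggcggtcact
Uros, chr7:133709323-133709352: cggtcacactGCGCCTGCGCgagtcccgcc
Urod, chr4:116994445-116994474: cactggatcggtCACGTGgttctcaatatg
Alad, chr4:62520151-62520180: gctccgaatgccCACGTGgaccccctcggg
The first base of the motif lay 224 and 195 bases before the start of the second Alas1 window, 47 before that of Uros, 49 before that of Urod and 105 before that of Alad. Both motifs were therefore found in genes that passed the test (Uros, Urod) and in genes that did not (Alas1, Alad). The same holds for the other motifs with a match. TGACG, the core of the cyclic AMP response element, stood in windows of 6 of the 7 genes (17.8% of all windows), GGGCGG, a GC box, in 5 (32.7%), and CCAAT in 4 (33.8%). AAGGTCA, a site of estrogen-related receptors (4.08% of all windows), and TGAC, any 3 bases and GC, the core of the antioxidant response element (10.2%), were found in 0. The latter can overlap with TGACG. Matches are counted by gene and the shares by window, and 4 of the 7 genes have 2 windows (11 windows in all), so counts and shares are not on the same basis. These are matches of letters, and binding was not measured here.

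Uros, on chromosome 7 (140877926-140901755), closes and inverts the tetrapyrrole ring. It had the largest difference among the 9 genes between BAT and iWAT. Its level was 26.8, 26.2 and 25.5 FPKM in BAT, 7.82, 3.07 and 2.65 FPKM in iWAT, and 9.66, 10.9 and 10.6 FPKM in eWAT. The 3 depots did not overlap, in the order BAT, eWAT, iWAT. BAT was 5.79 times iWAT on the mean FPKM, a log2 difference of 2.42 ± 0.31 (SE, n = 3 and 3, limma adjusted p = 0.000196). It was 2.51 times eWAT, a log2 difference of 1.25 ± 0.31 (adjusted p = 0.0112). With eWAT 1 as the only eWAT library, that difference was 1.35, no smaller, and its adjusted p was 0.106. In that fit the spread comes from BAT and iWAT alone, and eWAT 1 is assumed to vary as they do. Uros overlaps the gene Bccip on the opposite strand, and they share 0 exon bases.

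Urod, on chromosome 4 (116662570-116667018), trims the side chains of the closed ring and was the highest of the later enzymes. Its level was 78.4, 88.4 and 74.4 FPKM in BAT, 56.6, 28.6 and 35.1 FPKM in iWAT, and 60.1, 44.8 and 48.3 FPKM in eWAT. All 3 BAT libraries were above all 6 white ones. The mean of BAT was 2.01 times that of iWAT (log2 difference 1.04 ± 0.27, SE, limma adjusted p = 0.00815). Against eWAT the ratio was 1.58 (log2 difference 0.65, interval 0.06 to 1.25, adjusted p = 0.0839). That difference missed the threshold but passed it without iWAT 1 (adjusted p = 0.0160), without iWAT 2 (adjusted p = 0.0458) and with the 2 depots alone (adjusted p = 0.0118), since the spread is estimated over all libraries fitted.

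Cpox, on chromosome 16 (58670321-58680504), makes protoporphyrinogen and had the lowest level of the 9 genes. It was 3.12, 2.16 and 2.31 FPKM in BAT, 0.556, 0.914 and 0.545 FPKM in iWAT, and 0.333, 0.680 and 0.911 FPKM in eWAT. The log2 difference was 1.08 ± 0.21 against iWAT (SE, limma adjusted p = 0.00221) and 1.11 ± 0.21 against eWAT (adjusted p = 0.00270). Its signal in the shallowest case came to an estimated 4.75 reads. Since Cpox reached the filter of 1 FPKM in the 3 BAT libraries alone, a gene at its level would be tested only if it was high in BAT, and its call adds no support to those of the other enzymes.

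Ppox, on chromosome 1 (173206121-173211317), oxidises protoporphyrinogen in the mitochondrial inner membrane. Its level was 10.1, 10.7 and 9.24 FPKM in BAT, 6.12, 3.02 and 2.72 FPKM in iWAT, and 7.95, 5.78 and 3.30 FPKM in eWAT. BAT did not overlap with either white depot. The log2 difference was 1.21 ± 0.32 against iWAT (SE, limma adjusted p = 0.00988). Against eWAT it was 0.78 (interval 0.06 to 1.50, adjusted p = 0.0870) and missed the threshold, which it passed without iWAT 1 (adjusted p = 0.0392), without eWAT 1 (adjusted p = 0.0340), with the 2 depots alone (adjusted p = 0.0475) and when replicates were blocked by number (adjusted p = 0.0484). Ppox shares 791 of its 4515 exon bases with B4galt3 on the opposite strand, which lay between 5.34 and 9.05 FPKM. No strand setting is stated, so reads of the shared bases cannot be told apart.

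Fech, on chromosome 18 (64616204-64648720), is ferrochelatase, which inserts iron into the finished ring. Its level was 28.4, 25.8 and 22.1 FPKM in BAT, 9.57, 6.40 and 5.39 FPKM in iWAT, and 7.87, 9.02 and 10.8 FPKM in eWAT. The lowest BAT library was above the highest white one. The mean of BAT was 3.58 times that of iWAT (log2 difference 1.73 ± 0.25, SE, limma adjusted p = 0.000357) and 2.76 times that of eWAT (1.37 ± 0.25, adjusted p = 0.00182). The deep library eWAT 1 had the lowest Fech of its depot.

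**Figure D2:**
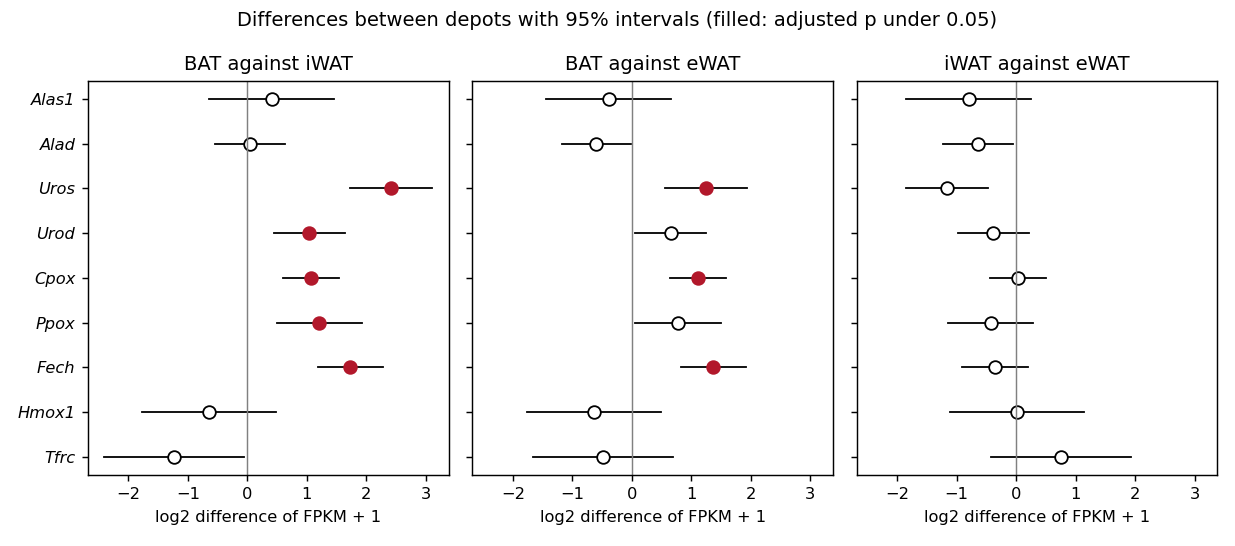
Log2 difference (horizontal axis, log2(FPKM + 1)) of each of the 9 genes in the 3 pairwise depot comparisons, with its 95% interval from limma; filled points passed the test. Uros, Urod, Cpox, Ppox and Fech lie to the right of 0 in both comparisons with BAT, and no gene passed between iWAT and eWAT.

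Over the 9 libraries, the 10 pairs among the 5 later enzymes correlated at r = 0.61 to 0.94 on log2(FPKM + 1). These pairs share libraries, depth and depot, so the values are a description.

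The balance of the pathway within each library does not depend on scaling between libraries. Alas1 and Alad together made up 45.5%, 40.0% and 49.6% of the FPKM sum of the 7 synthesis genes in BAT 1 to 3. They made up 63.5%, 59.5% and 71.4% in iWAT and 69.9%, 64.7% and 70.4% in eWAT. The highest BAT share was below the lowest white share, so that the 5 later enzymes held 50.4% to 60.0% of the sum in BAT and 28.6% to 40.5% in white fat. Fech took 8.35% to 10.5% of the sum in BAT and 2.76% to 6.17% in the white libraries. Alad stood at 1.86 to 2.80 times Fech in BAT and at 6.47 to 14.1 times Fech in white fat. The ratio of Uros to Urod, neighbours in the cytosol, separated all 3 depots: 0.296 to 0.342 in BAT, 0.161 to 0.244 in eWAT and 0.0753 to 0.138 in iWAT. The share of Alas1 alone overlapped between the depots, at 12.6% to 26.1% in BAT and 19.5% to 37.2% in white fat. That of Alad was 19.6% to 27.3% in BAT and 33.1% to 43.5% in white fat. The 5 later enzymes are those that passed the test against iWAT on the same values, so these shares add no separate support. The shares were not tested.

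**Figure D3:**
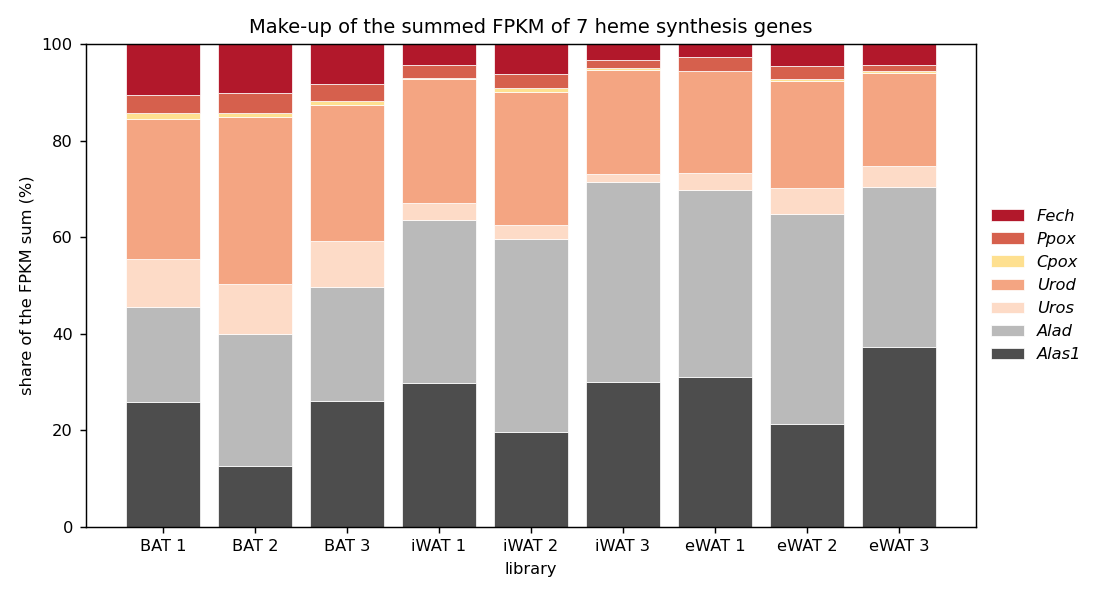
Share (percent) of each of the 7 synthesis genes in the sum of their FPKM, as a stacked bar starting at 0 for each of the 9 libraries. The segments of Alas1 and Alad end at 40.0% to 49.6% in BAT and at 59.5% to 71.4% in iWAT and eWAT.

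Genes that carry intermediates into mitochondria or keep the enzymes working were examined as a list of 15, all of which were tested. Of these, 10 were higher and 0 lower in BAT than in iWAT, with a median log2 difference of 1.20, and 7 were higher and 0 lower than in eWAT, with a median of 0.73. Of all genes, 34.5% were higher than in iWAT and 20.2% higher than in eWAT, with medians of 0.23 and -0.02. Tmem14c, a mitochondrial protein needed for the import of protoporphyrinogen, stood at 676 ± 21.9 FPKM in BAT, 79.0 ± 41.2 FPKM in iWAT and 127 ± 12.2 FPKM in eWAT (SD, n = 3 each). Its log2 difference was 3.21 against iWAT (limma adjusted p = 5.05e-05) and 2.41 against eWAT (adjusted p = 0.000302). Clpx, the chaperone that acts on the Alas1 protein, was higher in BAT by 1.57 and 1.31 (adjusted p = 0.000224 and 0.000861). Lonp1, a mitochondrial protease, was higher by 2.27 and 1.42, and Abcb10, an inner membrane transporter, by 1.77 and 1.01. Fdx1, a ferredoxin, was also higher in BAT than in eWAT, by 1.01 (adjusted p = 0.0130).

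Hmox1, on chromosome 8 (77617490-77624495), is the inducible heme oxygenase. Its level was 3.52, 9.15 and 4.18 FPKM in BAT, 4.88, 8.93 and 14.5 FPKM in iWAT, and 6.50, 18.9 and 4.89 FPKM in eWAT. The 3 depots overlapped and the spread within a depot was wide. The log2 difference of BAT was -0.64 from iWAT (interval -1.77 to 0.48, limma adjusted p = 0.294) and -0.63 from eWAT (interval -1.76 to 0.50, adjusted p = 0.350). Macrophages, which are known for high Hmox1, were covered by 14 markers in the table. Their summed level was 4.31 to 8.32 FPKM in BAT, 6.89 to 15.2 in iWAT and 9.24 to 14.9 in eWAT, and varied between markers. Cd68 was at most 0.505 FPKM and listed at 0 in 6 libraries, while Cd14 was at 1.46 to 8.63 FPKM in all 9 and C1qa reached 8.11 FPKM in iWAT 3. Of the 3 markers tested, C1qa was lower in BAT than in iWAT and Lyz2 lower than in eWAT. Of all genes, 22.9% and 13.5% were lower in these comparisons. Both markers reached 1 FPKM in white libraries alone, so the filter on low values favoured a lower level in BAT. The part of macrophages in the Hmox1 values was not tested.

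Hmox2, the constitutive heme oxygenase, did separate the depots. It stood at 46.3, 37.4 and 47.5 FPKM in BAT, 13.4, 4.92 and 7.51 FPKM in iWAT, and 19.1, 15.3 and 14.5 FPKM in eWAT. BAT was higher by 2.31 than iWAT (limma adjusted p = 0.000249) and by 1.37 than eWAT (adjusted p = 0.00688). Blvra, the reductase that turns biliverdin, the product of heme oxygenase, into bilirubin, was higher by 2.16 and 1.14 (adjusted p = 0.000386 and 0.0183). Mfsd7b, the older symbol of the heme exporter gene Flvcr1, had a mean of 4.38 ± 1.60 FPKM in BAT, and of 0.416 ± 0.246 FPKM in iWAT and 0.479 ± 0.0727 FPKM in eWAT (SD, n = 3 each). Like Cpox, it reached 1 FPKM in the BAT libraries alone. Of the 8 tested genes of heme export, import and breakdown, 5 were higher and 1 lower in BAT than in iWAT (median 1.27), and 3 were higher and 1 lower than in eWAT (median 0.71). Without Mfsd7b, whose call the filter on low values fixed, 4 and 2 of 7 were higher (medians 1.21 and 0.64). The shares of all genes were 34.5% and 20.2% higher and 22.9% and 13.5% lower. The gene that was lower in both was Lrp1, the receptor for heme bound to hemopexin, with differences of -0.84 (adjusted p = 0.0481) and -1.25 (adjusted p = 0.0146). Slc46a1, a folate carrier that also takes up heme, was higher than in iWAT by 1.32 (adjusted p = 0.00770).

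Tfrc, on chromosome 16 (32609006-32632880), binds iron-loaded transferrin at the cell surface. Its mRNA is known to be held stable in iron-poor cells by stem-loops in its 3′ untranslated region, the iron-responsive elements, to which the iron regulatory proteins bind. The same element in a 5′ untranslated region blocks translation in iron-poor cells. The elements are shown because the uptake gene and the storage and export genes carry them at opposite ends. A pattern of 17 bases (C, a 5-base arm, a 6-base loop and an arm that pairs with the first) was searched in the GENCODE vM1 transcripts. The loop was CAGTG followed by A, C or T, and G with T counted as a pair in the arms. The pattern was found in 204 of 22611 coding genes (0.902%) and, among the 9 genes, in Tfrc alone, where it matched 4 times. Capitals mark the loop.
Tfrc 3′, chr16:32631311-32631327, plus strand: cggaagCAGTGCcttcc
Tfrc 3′, chr16:32631690-32631706, plus strand: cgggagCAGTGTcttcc
Tfrc 3′, chr16:32631755-32631771, plus strand: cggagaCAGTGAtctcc
Tfrc 3′, chr16:32631802-32631818, plus strand: cgggaaCAGTGTttccc
Fth1 5′, chr19:10057228-10057244, plus strand: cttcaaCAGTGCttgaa
Ftl1 5′, chr7:52715155-52715171, minus strand: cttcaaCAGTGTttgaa
Slc40a1 5′, chr1:45982316-45982332, minus strand: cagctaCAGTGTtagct
Alas2 5′, chrX:146982007-146982023, plus strand: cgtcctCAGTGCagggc
Alas2 carries the element at its 5′ end, while no match was found in Alas1.

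Tfrc stood at 18.3, 7.07 and 15.1 FPKM in BAT, 17.5, 51.2 and 32.2 FPKM in iWAT, and 7.79, 28.8 and 24.9 FPKM in eWAT. It was the only one of the 9 genes whose highest level was in iWAT 2, and BAT overlapped with both white depots. The log2 difference of BAT from iWAT was -1.23 (interval -2.40 to -0.05, limma adjusted p = 0.0686), which did not pass the test. It was -1.62 without iWAT 1 (adjusted p = 0.0266) and -1.46 with median-ratio scaling (adjusted p = 0.0328), which both passed, as did -1.50 with quantile normalization (adjusted p = 0.0292) and the fits without eWAT 1 (adjusted p = 0.0285) and with the 2 depots alone (adjusted p = 0.0410). Against eWAT the difference was -0.48 (interval -1.66 to 0.70, adjusted p = 0.50), and it was 0.63 with eWAT 1 as the only eWAT library (adjusted p = 0.599). The direction against eWAT therefore rested on the shallow libraries eWAT 2 and 3.

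The epithelial and skin markers Krt5, Krt8, Krt14 and Krt15 moved with Tfrc across the libraries, and other markers of that list did not. The summed level over its 9 markers, most of it from Krt5, Krt14 and Krt15, was 48.7, 23.6 and 35.1 FPKM in BAT, 162, 437 and 317 FPKM in iWAT, and 64.3, 217 and 193 FPKM in eWAT. Within each depot, the library with the lowest sum was the one with the lowest Tfrc, and the library with the highest sum was the one with the highest Tfrc. BAT was lower than iWAT for 5 of the 5 markers tested and lower than eWAT for 4, where 22.9% and 13.5% of all genes were lower. Of these markers, Krt8 and Trp63 reached 1 FPKM in white libraries alone, so the filter on low values favoured a lower level in BAT. Krt5, Krt14 and Krt15, above 1 FPKM in all 9 libraries, were lower in BAT in both comparisons. Trp63, a transcription factor of the same cells, ran the other way in white fat: it was 0.344 FPKM in iWAT 2 against 1.51 and 1.62 in iWAT 1 and 3, and 0.765 in eWAT 2 against 1.66 and 1.74 in eWAT 1 and 3. Krt18 was listed at 0 in 6 libraries and Epcam in 7. The part of these cells in the Tfrc values was not tested. The 12 skeletal muscle markers summed to 109 to 209 FPKM in BAT, 1856 to 2535 in iWAT and 240 to 1333 in eWAT. The library order of Tfrc was not particular to keratins. Acta1 of the muscle list ranked the libraries of each depot as Tfrc did. It stood at 148, 58.4 and 91.6 FPKM in BAT, 668, 1369 and 953 in iWAT, and 225, 714 and 638 in eWAT. The iron chaperone gene Pcbp1 had this order too. Most other muscle markers, such as Ckm (94.0, 25.3 and 39.5 FPKM), ran the other way in iWAT. Pvalb, of the same list, had the order of Tfrc there (556, 959 and 576 FPKM). In eWAT the muscle markers ranked the libraries as Tfrc did, with Ckm at 0.0802, 24.8 and 19.5 FPKM. Markers of red cell precursors, which take up much iron through Tfrc, summed to at most 11.9 FPKM over 9 genes in any library.

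**Figure D4:**
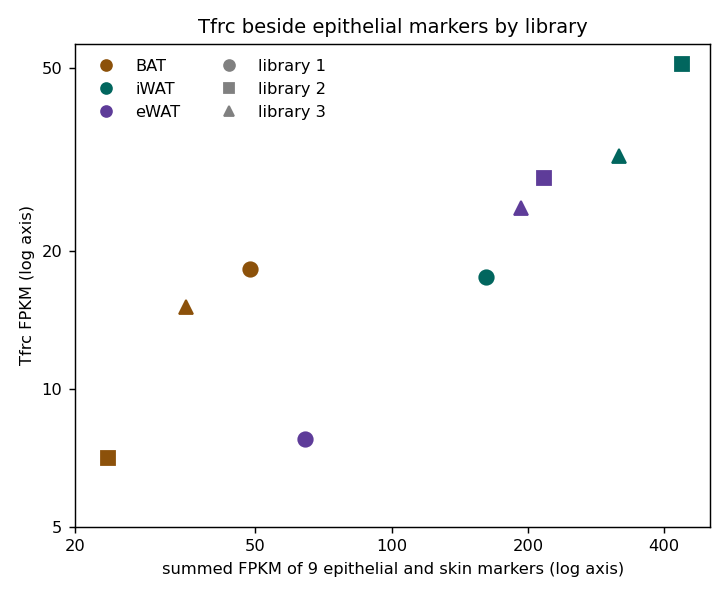
Tfrc (FPKM, vertical axis) against the summed FPKM of 9 epithelial and skin markers (horizontal axis), 1 point for each of the 9 libraries, coloured by depot. The libraries with the most marker signal, iWAT 2 and iWAT 3, have the highest Tfrc, 51.2 and 32.2 FPKM, and BAT 2 has the least of both.

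The storage gene Fth1 and the export gene Slc40a1 were higher in BAT than in either white depot. Fth1, the heavy chain of ferritin, stood at 1863, 2176 and 1449 FPKM in BAT, 403, 303 and 249 FPKM in iWAT, and 437, 427 and 473 FPKM in eWAT. Its log2 difference was 2.53 against iWAT (limma adjusted p = 4.35e-05) and 2.02 against eWAT (adjusted p = 0.000176). Ftl1, the light chain, was higher in BAT than in iWAT by 0.87 (adjusted p = 0.0319) and differed from eWAT by 0.04 (adjusted p = 0.932). Both ferritin genes have near-identical pseudogene copies, and how the authors placed shared reads is not stated, so their levels are uncertain. Slc40a1, ferroportin, the only known exporter of iron from cells, stood at 9.19, 8.91 and 4.40 FPKM in BAT, 0.437, 0.0899 and 0.428 FPKM in iWAT, and 0.213, 0.340 and 0.607 FPKM in eWAT. Its difference was 2.64 against iWAT and 2.57 against eWAT (adjusted p = 5.86e-05 and 7.27e-05), and it too passed the filter through BAT alone. The ratio of Fth1 to Tfrc was 102, 308 and 96.2 in BAT, 23.0, 5.93 and 7.73 in iWAT, and 56.1, 14.8 and 19.0 in eWAT. The lowest BAT ratio was above the highest white one.

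**Figure D5:**
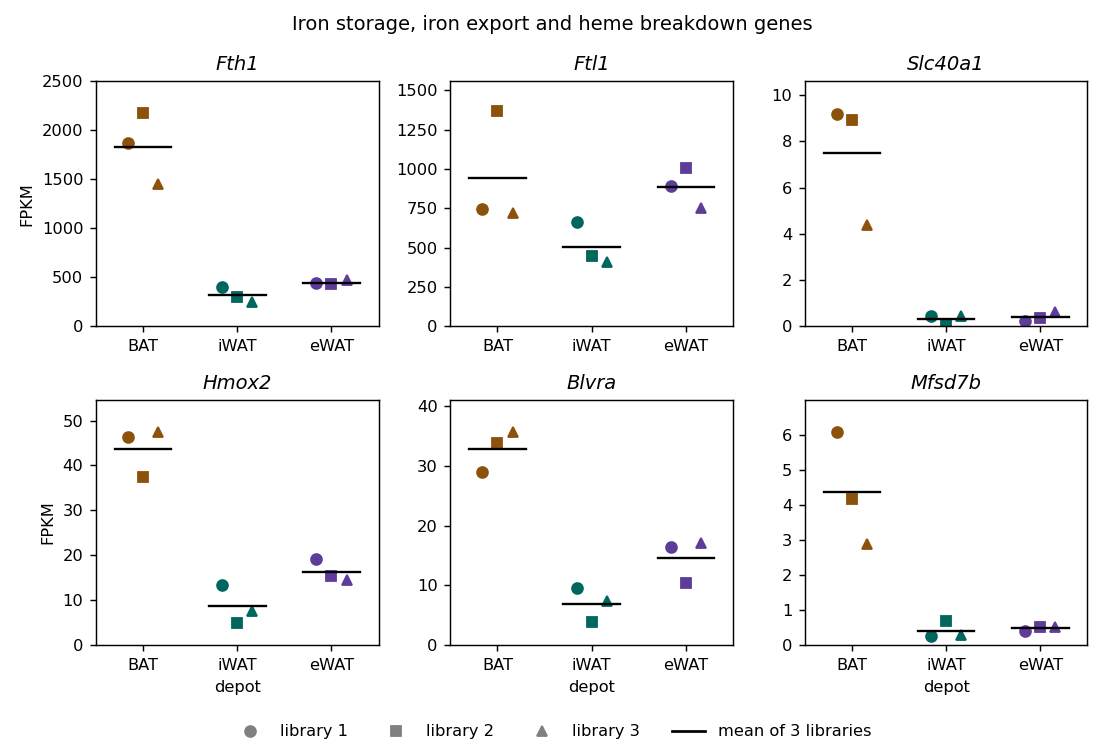
FPKM (vertical axis from 0, its own range in each panel) of Fth1, Ftl1, Slc40a1, Hmox2, Blvra and Mfsd7b in each library, with 1 point for each of the 3 libraries of a depot and a bar at the mean. The BAT points of Fth1, Slc40a1, Hmox2, Blvra and Mfsd7b lie above all white points, while those of Ftl1 overlap with eWAT.

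Across the list of iron uptake, storage and export, 8 of 14 tested genes were higher and 4 lower in BAT than in iWAT (median 0.70), and 2 were higher and 4 lower than in eWAT (median 0.24). Without Slc40a1, 7 of 13 were higher than in iWAT and 1 higher than in eWAT (medians 0.69 and 0.04). Of all genes, 34.5% were higher and 22.9% lower than in iWAT, and 20.2% higher and 13.5% lower than in eWAT. The lower genes included Heph, a ferroxidase that works with ferroportin, at 0.625 ± 0.243 FPKM in BAT and 9.59 ± 1.85 FPKM in eWAT (SD, n = 3 each, log2 difference -2.70, limma adjusted p = 4.90e-05). Heph reached 1 FPKM in the white libraries alone, so the filter on low values favoured a lower level in BAT. It is among the 4 lower genes of both comparisons. The lower genes also included Cp, the circulating ferroxidase ceruloplasmin, at 1.68 ± 0.369 against 8.16 ± 3.32 FPKM in eWAT (-1.72, adjusted p = 0.0101). The iron chaperone genes Pcbp2 and Pcbp1, which also bind RNA, were lower in BAT than in iWAT by -2.22 and -1.83 (adjusted p = 0.00752 and 0.00218). Of the iron regulatory proteins, Aco1 was higher in BAT than in iWAT by 0.78 (adjusted p = 0.0268) and differed from eWAT by 0.11 (adjusted p = 0.762). Ireb2 differed by -0.11 and -0.21 (adjusted p = 0.722 and 0.554).

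Between the 2 white depots, 0 of the 9 genes passed limma's test, where 1.74% of all genes did (0.231% higher and 1.5% lower in iWAT). An unadjusted p under 0.05 was found for 2 of the 9, and for 2710 of all 10374 genes tested. Of all genes, 24 were higher and 156 lower in iWAT, against 32 and 78 with median-ratio scaling and 42 and 99 with quantile normalization. The log2 difference of Uros, iWAT minus eWAT, was -1.17 (interval -1.86 to -0.48, adjusted p = 0.0815). Uros was 2.31 times higher in eWAT on the mean FPKM, with no overlap. Alad differed by -0.64 (adjusted p = 0.167), also with no overlap. All 3 iWAT libraries lay below all 3 eWAT libraries for these 2 of the 9 genes and above them for 0, as they did for 19.5% and 3.1% of all genes. Without iWAT 1, the library nearest to eWAT, 3 genes passed as lower in iWAT: Alad at -0.81 (adjusted p = 0.0359), Uros at -1.56 (adjusted p = 0.00110) and Urod at -0.66 (adjusted p = 0.0330). In that fit 32.3% of all genes passed, 27.8% as lower in iWAT, so the 3 of 9 stand near the background. The other differences were -0.80 for Alas1, -0.39 for Urod, -0.43 for Ppox, -0.36 for Fech, 0.03 for Cpox, 0.01 for Hmox1 and 0.75 for Tfrc, with adjusted p from 0.274 to 0.989. The median of the 9 genes was -0.39 and that of all genes -0.18.

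The genes whose log2(FPKM + 1) followed each of the 9 most closely over the 9 libraries were sought among 5480 genes with a mean of at least 5 FPKM. Tfrc was followed by Eif3a (r = 0.988), Zfp36l1 (0.984), Hnrnpul2 and Srsf10 (0.983 each) and Serf2 (0.982). Alas1 was followed by Nudt18 (0.940), Zfp740 (0.922), Dhrs3 (0.918), Dtx2 (0.914) and Fam89b (0.909). Hmox1 had no neighbour above 0.824, that of Ccdc6, after which came Ccdc85b (0.818), ORF19 (0.798) and Hist1h2bf (0.786). The nearest gene was Fundc2 for Uros (0.998), Mrps15 for Urod (0.994), Scoc for Cpox (0.987), Snhg1 for Ppox (0.993), Mrps2 for Fech (0.994) and Ddx28 for Alad (0.987). Mrps15 and Mrps2 encode mitochondrial ribosome proteins. These values share 9 libraries, their depth and their depots, and are a description.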

How the data were processed

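The authors mapped single-end, ribosomal RNA-depleted reads and made the values with TopHat and Cufflinks on build mm9, per the submitters' processing notes, which give no versions. The deposited values were read as FPKM because Cufflinks gives them and the columns are fractional, since the header names no unit. Annotation, filters and strand are not given in the sources used here. The members and gene lists were chosen with earlier results of these data known. The table held 22996 lines. Where a symbol had more than 1 line (259 symbols), that of the highest mean was used. Depth was estimated from transcripts' single-read steps.

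The test used limma 3.58.1 (R 4.3.3) with empirical Bayes moderation and an intensity trend on log2(FPKM + 1), in 1 fit of 9 libraries by depot (3 group means, 6 residual degrees of freedom). The filter kept 10374 genes that reached 1 FPKM in 3 or more libraries. P-values, after checks of the script on simulated data, were adjusted over all of them by the Benjamini-Hochberg method. For libraries with equal numbers, deviations from group means correlated at 0.634, 0.534 and 0.165 for iWAT with eWAT, and at -0.388 to 0.121 for BAT with either white depot. By the rule that each such value exceed 0.1, the numbers pair iWAT with eWAT only, from the values and not the labels. Between these 2 depots, unlike numbers also exceeded 0.1 for iWAT 2 with eWAT 3 (0.228) and iWAT 3 with eWAT 2 (0.105). The other unlike pairs lay between -0.576 and -0.195. The pairing is therefore uncertain.

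Named genes were the 9 members, Alas2, Hmox2, Fth1, Ftl1, Slc40a1, Aco1, Ireb2, up to 4 called genes of each list with the largest differences per comparison, and the nearest genes by correlation (5 for Alas1, Hmox1 and Tfrc and 1 for each other member, unnamed gene models and small RNAs left out). A few genes that this rule names are not reported here. Alternatives tried were no filter, a mean of at least 5 FPKM, a pseudocount of 0.1, median-ratio scaling, quantile normalization, the replicate block, no intensity trend, 2 depots alone, each library left out, and eWAT 2 and 3 left out together. Gene positions and iron-responsive elements came from GENCODE vM1 (mm9), and promoters from RefSeq (GRCm38.p6). Python 3.11.15 was used for the tables.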

Additional observations from a re-analysis of the deposited data

How the results depend on the processing

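The calls of Uros, Urod, Cpox, Ppox and Fech between BAT and iWAT, and of Cpox and Fech between BAT and eWAT, held in every alternative that gave a value. Cpox had none with a mean of at least 5 FPKM or without a BAT library, where it failed the filter. Of 473 alternative values of single members, 441 kept their direction and side of the threshold.

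Signs turned for differences near 0. Alad, BAT against iWAT, was -0.19 with median-ratio scaling and -0.35 with quantile normalization, and -0.21 to 0.21 with 1 library left out. With 1 library left out, Alas1 in that comparison ranged from -0.068 (without iWAT 2) to 0.77, Cpox between the white depots from -0.11 to 0.15 and Hmox1 there from -0.34 to 0.54. Without eWAT 2 and 3, Tfrc, BAT against eWAT, was 0.63.

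Of all genes, 3583 were higher and 2378 lower in BAT than in iWAT, against 3008 and 2913 with median-ratio scaling, where the median of all genes fell from 0.23 to 0.04. With a mean of at least 5 FPKM, 3783 genes were called in that comparison, 2244 between BAT and eWAT and 79 between the white depots, over fewer genes tested. Between BAT and eWAT, 3492 genes, 32 of the pathway lists and 3 of the 9 members were called. These counts were 2141 to 4422, 21 to 41 and 2 to 5 with 1 library left out (5 members without iWAT 1 and without iWAT 2), 1411 and 11 for all genes and the lists without eWAT 2 and 3, and 6 members with these depots fitted alone. Between iWAT and eWAT, 180 genes were called, against 90 with a pseudocount of 0.1, 93 with no filter, 110 with median-ratio scaling, 45 with these depots alone, 27 without eWAT 2 and 3, and 15 to 3315 with 1 library left out. The 1 pathway gene called there became 0 with each of these settings, with quantile normalization and with a mean of at least 5 FPKM, and 0 to 39 with 1 library left out. The members came to 0 to 3. The cause was not tested.

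With the replicate block, 5, 4 and 0 members were called in BAT against iWAT, BAT against eWAT and iWAT against eWAT. Ppox in BAT against eWAT (limma adjusted p = 0.0484) was the only member whose call changed with this block. The block used the numbers of all libraries, and by the rule above these numbers did not pair BAT with eWAT. Depth limits Cpox most, at an estimated 4.75 to 136 reads per library.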

Other observations

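Iron-sulfur clusters draw on the same mitochondrial iron as Fech, which itself carries one in mammals. Of 19 tested genes of cluster assembly, 17 were higher and 1 lower in BAT than in iWAT (limma, median log2 difference 2.07), and 14 were higher and 1 lower than in eWAT (median 1.50). The background was 34.5% and 20.2% of all genes higher. Isca1, an assembly factor of mitochondrial clusters, had a mean of 380 ± 21.2 FPKM in BAT. It had 63.6 ± 22.9 FPKM in iWAT and 105 ± 9.47 FPKM in eWAT (SD, n = 3 each). Its differences were 2.62 and 1.84 (limma adjusted p = 4.45e-05 and 0.000399). Bola3, which helps to hand clusters to their targets, differed by 2.89 and 1.83, and Fam96b, of the cytosolic targeting complex, by 2.70 and 2.37. The gene that was lower was Mms19, another part of the cytosolic complex, at -0.997 and -0.786 (adjusted p = 0.00692 and 0.0327). Nubp1, a cytosolic scaffold, was the only gene of all pathway lists called between the white depots, lower in iWAT by -1.11 (adjusted p = 0.0401).

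Of 10 tested regulators of heme and iron genes, 4 were higher and 1 lower in BAT than in iWAT. Of all genes, 34.5% were higher and 22.9% lower, so the count of higher regulators stands near the background. Against eWAT, 0 passed, where 33.7% of all genes did, and 1 had an unadjusted p under 0.05, as had 4710 of all 10374 genes. Nfe2l2, an activator of Hmox1 in other tissues, was higher by 1.11 (limma adjusted p = 0.00420) and Bach1, a repressor of Hmox1, by 0.61 (adjusted p = 0.0162). Mafg, a partner of both, was lower by -1.11 (adjusted p = 0.0133). Ppargc1a, which is known to raise Alas1 in liver, was named after its values were seen: it stood at 4.36, 3.79 and 15.1 FPKM in BAT and between 1.35 and 9.0 FPKM in white fat, and its difference was -0.04 from iWAT (adjusted p = 0.958).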
